A study of Arabidopsis thaliana with 4 samples.

Results

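AT3G18500 is a protein-coding gene of Arabidopsis thaliana, and it held more alternative splicing events than any other gene of the data set. The events were those whose identifier in the deposited event table carries this gene, which gave 38 events of the 14133 listed for 5268 genes. The median gene had 2 events, and the gene with the next highest number, AT2G21660, had 31. The gene was chosen for its number of events, so that number is a description and was not tested.

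The values come from RNA sequencing of 2 ecotypes, Ler and Col, which are natural inbred strains with different genome sequences. Each ecotype had 2 samples of untreated 14-day-old seedlings, grown on Murashige and Skoog plates with sucrose at 22 °C in a day of 8 h light and 16 h dark. The labelled source is the first leaf, although the extraction protocol speaks of shoots, and all libraries were made from polyadenylated RNA. The deposited table gives 1 pooled inclusion level per ecotype and event, so the levels below have no SD and no n. The depth behind them is not listed. Some levels equal simple fractions, such as 75% and 62.5% in Col, so they may rest on few reads. Whether the samples of an ecotype came from separate plantings is not stated.

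An intron is removed between a donor site at its start, which usually begins with GT, and an acceptor site at its end, which usually closes with AG. When a donor can be joined to several acceptors, or an intron can stay in the transcript, 1 gene gives several mRNAs. An insertion whose length is not a multiple of a codon shifts the reading frame, and transcripts with an early stop codon can be degraded by nonsense-mediated decay. The RefSeq annotation calls the product of AT3G18500 a DNAse I-like superfamily protein. This fold is shared by DNase I and by the CCR4 proteins, nucleases that shorten the poly(A) tail of mRNA in the CCR4-NOT complex.

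The gene lies on chromosome 3 at 6352447 to 6355463 (TAIR10 coordinates, plus strand), and its coding span is 6352544 to 6355297. RefSeq lists 4 transcripts. AT3G18500.4 has 13 exons and is used here to number exons. AT3G18500.1 has 12 exons because it lacks exon 3, and AT3G18500.2 and AT3G18500.3 differ from AT3G18500.4 in where exon 10 starts. No other annotated gene overlaps it. The nearest, AT3G18510, starts 788 bp beyond the last splice site of the events.

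The 38 events combined only 13 junctions, made of 4 donors and 10 acceptors, and all 13 had GT and AG ends in the Col reference. Of these junctions 7 are annotated and 6 are not. Grouped by shared splice sites, the events fell into 2 groups that have no site in common. The larger group holds 32 events and 10 junctions between exons 1 and 4, and the smaller holds 6 events and 3 junctions between exons 9 and 10. Each junction served 3 to 10 events, so the events of a group are not independent measurements. By type there were 15 alternative 3' site events, 11 retained introns, 8 skipping events and 4 alternative 5' site events. The event identifiers label skipping events Skip_Exon or Skip_Intron, and the skipping events that the authors marked carry Skip_Intron. All splice sites lie within the coding span.

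**Figure D1:**
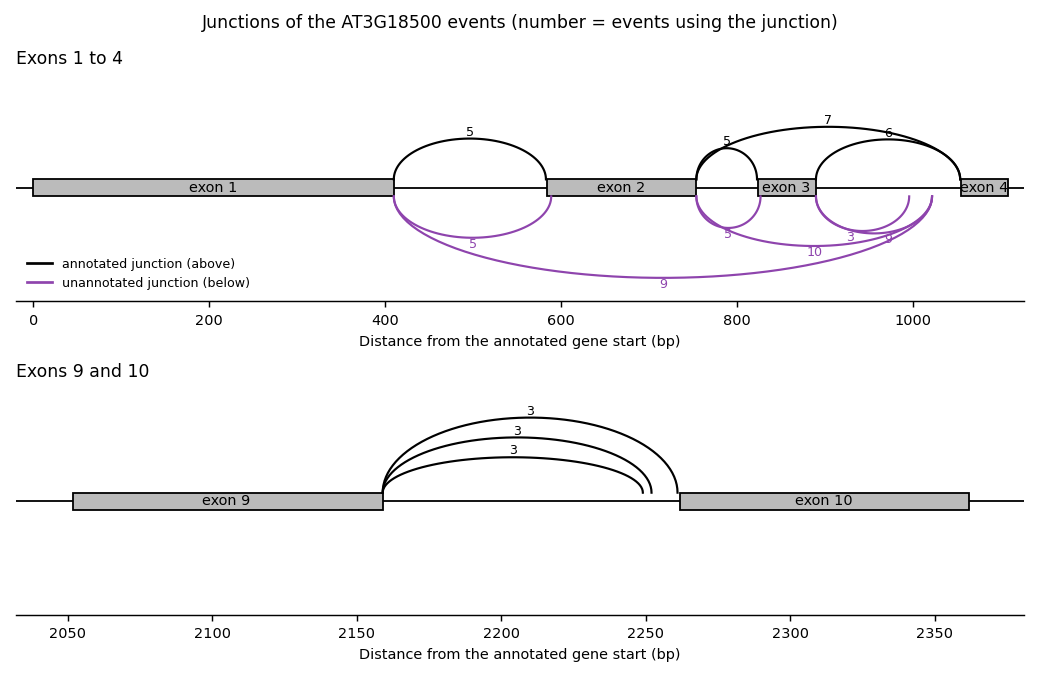
Exons of AT3G18500 (grey boxes) and the 13 junctions of its events (arcs), by distance from the annotated gene start in bp, with the number of events that use each junction. The 7 annotated junctions are drawn above and the 6 unannotated ones below, and no junction links exons 1 to 4 with exons 9 and 10.

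The donors and acceptors are shown because all results below are ratios between them. Sequences are those of the Col reference in the RefSeq copy of the genome (TAIR10.1, plus strand, 5' to 3'). Capitals mark the GT that opens an intron and each AG that closes one. The first 10 bases of each donor sequence are exon.
Exon 1 donor, chr3:6352847-6352866: gtttctcaagGTagtttaat
Exon 2 donor, chr3:6353191-6353210: ctctatgcagGTaatgaact
Exon 3 donor, chr3:6353327-6353346: ctcctataagGTtgatgtat
Exon 9 donor, chr3:6354596-6354615: taactttcagGTaagattgt
Exon 2 acceptor and the acceptor 6 bp inside exon 2, chr3:6353007-6353046: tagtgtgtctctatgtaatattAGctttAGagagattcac
Exon 3 acceptor and the acceptor 4 bp inside exon 3, chr3:6353247-6353284: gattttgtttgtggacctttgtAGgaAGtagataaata
Acceptors 58 and 32 bp before exon 4 and the exon 4 acceptor, chr3:6353420-6353511: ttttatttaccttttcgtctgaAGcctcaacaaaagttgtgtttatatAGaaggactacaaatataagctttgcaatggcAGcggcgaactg
Acceptors 12 and 9 bp before exon 10 and the exon 10 acceptor, chr3:6354673-6354718: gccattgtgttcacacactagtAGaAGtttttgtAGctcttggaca

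Pyrimidines (C or T) made up 45% of the 20 bases ahead of the AG at the exon 4 acceptor and also 45% at the acceptor 32 bp before it. The acceptor 58 bp before exon 4 had 75%. Over 135259 annotated introns the median of this share was 65%, with quartiles of 55% and 70%. The Ler sequence was not used here, but the Ler coordinates show where lengths differ. Intron 1 was 177 bp in Ler and 174 bp in Col, and intron 3 was 166 bp in Ler and 165 bp in Col. The Ler bases beyond the Col length of intron 3 lie before the acceptor 58 bp before exon 4, since that interval already differed (108 bp in Ler and 107 bp in Col). Introns 2 and 9 had equal lengths, 70 bp and 103 bp.

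Of the 38 events the authors marked 10 as different between the ecotypes (26.3%), against 7.46% of all 14133 events. The inclusion level, which stands for the form that keeps an intron, uses the longer exon or contains the exon, was higher in Ler in 7 of the marked events and higher in Col in 3. Over all events, 3.38% were marked as higher in Ler and 4.08% as higher in Col. The median absolute difference between Ler and Col was 8.93 percentage points in the gene and 3.78 points over all events. A difference of at least 10 points was listed for 18 of the 38 events, against 23.8% of all events. Of the 38 levels 29 were higher in Ler (48.4% of all events were) and 9 in Col, but many of these rest on the same junction. No test over samples was possible with 1 value per ecotype.

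**Figure D2:**
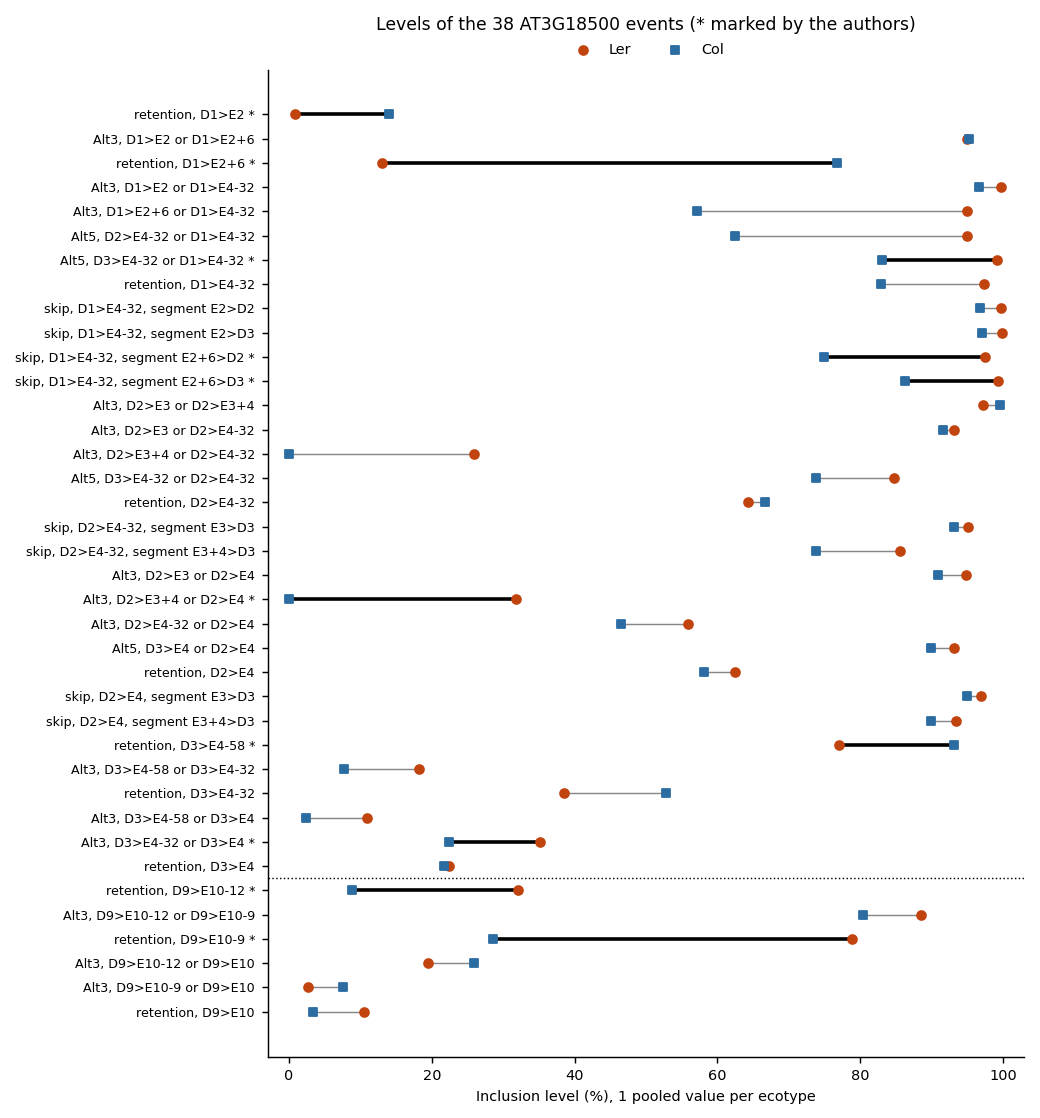
Inclusion level in percent of each of the 38 events in Ler (circles) and Col (squares), with 1 pooled value per ecotype. D1, D2, D3 and D9 are the donors of exons 1, 2, 3 and 9, E2 to E10 are exon acceptors, and a number after the exon gives the distance in bp of another acceptor inside (+) or before (-) that exon. In 3' and 5' site events the included junction stands first, and the dotted line separates the group of exons 9 and 10. Thick lines with a star are the 10 marked events, among which the retained introns of the exon 1 donor lie far lower in Ler.

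Intron 1 was retained far less in Ler. The retention level of the annotated intron was 0.777% in Ler and 14.0% in Col, with q = 1.57e-12 in the authors' deposited table. For the same intron ended at the acceptor 6 bp inside exon 2, the level was 13.0% in Ler and 76.7% in Col, the largest difference of the gene at -63.7 points (q = 2.23e-06 in the authors' deposited table). Both events were marked as higher in Col. The choice between these acceptors barely differed: the exon 2 acceptor was used at 95.0% in Ler and 95.3% in Col in the 3' site event (q = 1 in the authors' deposited table).

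These values raise the question of whether a retention level compares the unspliced intron with 1 junction at a time, so that a rarely used acceptor gives a high level. This was checked on the table. If the unspliced form is the same in all retention events of a donor, 2 retention levels fix the ratio of their acceptors, which the table also lists as a 3' site event. All 20 such levels of AT3G18500 could be compared, and the listed and computed values differed by a median of 0.363 points and at most 7.81 points. For the 14 levels whose retention events contain no annotated exon, at the donors of exons 1, 3 and 9, the median was 0.327 points and the maximum 3.60 points. For the other 6, where a retention interval spans exon 3 or both exons 2 and 3, the median was 3.46 points. The 2 levels that missed by over 5 points are those of the exon 2 donor for the acceptor 32 bp before exon 4 against the exon 4 acceptor, listed at 55.9% in Ler and 46.5% in Col and computed as 48.1% in Ler and 41.0% in Col. Shares are therefore recombined from retention levels below only over intervals without an exon, a choice made after these values were seen. In the other genes of the table the same computation gave a median difference of 1.71 points over 2668 levels, of which 73.4% were within 5 points. A further 10 levels of AT3G18500 were computed from other 3' or 5' site events that share a site, and they were within 4.55 points of the listed levels. Events that share a junction thus repeat much of the same information.

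**Figure D3:**
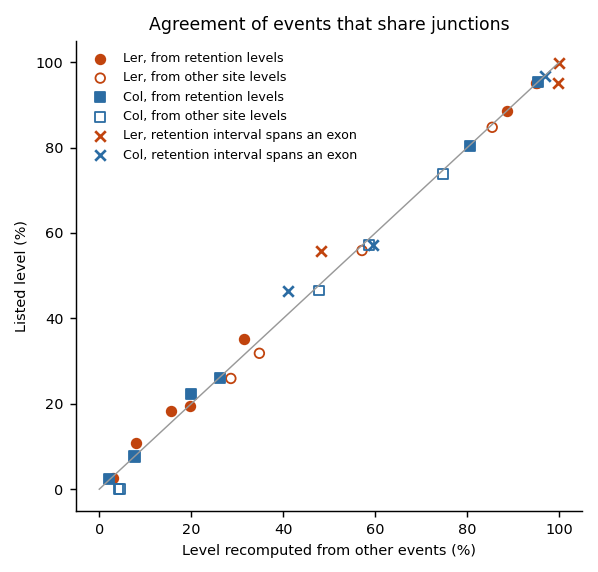
Listed inclusion level in percent (vertical) against the level computed from other events that share its splice sites (horizontal), for AT3G18500 in Ler (orange) and Col (blue). Filled symbols were computed from 14 pairs of retention levels without an exon in the interval, crosses from 6 with one, and open symbols from 10 combinations of other 3' or 5' site events. Filled and open symbols lie within 4.55 points of the line of equal values, and the crosses within 7.81 points.

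Put together in this way, the unspliced form made up 0.739% in Ler and 13.4% in Col of the forms of the exon 1 donor that the retention levels cover, a Ler to Col ratio of 0.055. The spliced form with the exon 2 acceptor made up 94.3% in Ler and 82.5% in Col. The form with the acceptor 6 bp inside exon 2 made up 4.93% in Ler and 4.07% in Col. These shares are ratios of deposited levels, not read counts, and have no error of their own. The unspliced share in Ler may rest on very few reads. Translated on the Col reference from the annotated start, a transcript that keeps intron 1 meets a stop codon after 123 codons, inside the intron, against 445 codons in AT3G18500.4. The acceptor 6 bp inside exon 2 removes 2 codons and keeps the frame.

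The exon 1 donor was also joined to the unannotated acceptor 32 bp before exon 4, which skips exons 2 and 3. It is the excluded form in 9 events, and the level of the other form was higher in Ler in all 9, with q under 0.05 in the authors' deposited table in 8 of them. The exception was the retention event of the interval. All 9 share that 1 junction, so they are not independent differences. The number of reads on the junction is not listed and may be very small in Ler. The authors marked 3 of them.

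Among the marked events of this junction, the 5' site event with the exon 3 donor was at 99.1% in Ler and 83.1% in Col. The skipping event of a segment from the acceptor 6 bp inside exon 2 to the exon 2 donor was at 97.4% in Ler and 75% in Col. That of the segment from the same acceptor to the exon 3 donor was at 99.2% in Ler and 86.2% in Col. In these 3 events the long junction is set against forms that are themselves minor or unannotated.

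Both unmarked events of the gene with q under 0.05 and a difference of over 10 points also belong to this junction. The 3' site event with the acceptor 6 bp inside exon 2 was at 95.0% in Ler and 57.1% in Col (q = 0.0104 in the authors' deposited table). The 5' site event with the exon 2 donor was at 95.0% in Ler and 62.5% in Col (q = 0.0261 in the authors' deposited table). Their differences, 37.9 and 32.5 points, exceeded those of the 3 marked events. The sources used here do not give the rule behind the authors' mark, and 135 events of the whole table (0.955%) have q under 0.05 and at least 10 points without a mark.

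Against forms spliced at the exon 2 acceptor, the same junction gave differences of at most 3.11 points. The 3' site event with the exon 2 acceptor was at 99.7% in Ler and 96.6% in Col. Annotated exon 2 was included at 99.8% in Ler and 96.8% in Col, and the segment from exon 2 to the exon 3 donor at 99.8% in Ler and 97.1% in Col. The retention event of the 613 bp between the sites differed more: it was 97.3% in Ler and 82.9% in Col and was not marked (q = 0.0895 in the authors' deposited table).

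Computed from the 3' site levels, the long junction took 0.248% in Ler and 3.22% in Col of the splicing of the exon 1 donor. Seen from the other end, the exon 1 donor supplied 0.763% in Ler and 13.2% in Col of the joins to the acceptor 32 bp before exon 4. Both Ler shares of this junction may rest on very few reads. The exon 2 donor supplied 14.5% in Ler and 22.0% in Col, and the exon 3 donor 84.7% in Ler and 64.8% in Col. The form that skips exons 2 and 3 in this way is 204 bp shorter, a multiple of a codon. Its added 32 bp nevertheless bring a stop codon after 109 codons.

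The exon 2 donor took part in 17 events, of which 2 were marked, 1 of them also an event of the long junction of exon 1. Exon 3, the 66 bp exon that AT3G18500.1 lacks, was included at 97.0% in Ler and 94.9% in Col when skipping to the exon 4 acceptor is the alternative. Against skipping to the acceptor 32 bp before exon 4, it was included at 95.1% in Ler and 93.2% in Col. Neither event was marked. Loss of exon 3 removes 22 codons and keeps the frame.

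The marked event that belongs to this donor alone concerns the acceptor 4 bp inside exon 3. Against the exon 4 acceptor its level was 31.8% in Ler and listed at 0 in Col (q = 0.0267 in the authors' deposited table). Against the acceptor 32 bp before exon 4 it was 25.9% in Ler and also listed at 0 in Col, without a mark. The 3' site event that sets this acceptor against the exon 3 acceptor does not list it at 0 in Col. There the exon 3 acceptor was used at 97.2% in Ler and 99.6% in Col, which leaves a small remainder for the acceptor 4 bp further on. From that remainder, levels of 4.17% and 4.55% would follow in Col for the pair of events listed at 0. The Col remainder may stand for very few reads, and the Ler levels of this acceptor may also rest on few. Among all acceptors of the exon 2 donor, it took 2.52% in Ler and 0.366% in Col, where the Col share rests on that remainder alone. Use of this acceptor shifts the frame and gives a stop codon after 161 codons.

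Among the other events of the exon 2 donor, the exon 3 acceptor was at 93.2% in Ler and 91.6% in Col against the acceptor 32 bp before exon 4, and at 94.8% in Ler and 90.8% in Col against the exon 4 acceptor. Between those 2 downstream acceptors, the one 32 bp before exon 4 was at 55.9% in Ler and 46.5% in Col, a difference of 9.37 points. The retention events were at 64.3% in Ler and 66.7% in Col for the 269 bp interval, and at 62.5% in Ler and 58.2% in Col for the 301 bp interval. None of these 5 was marked.

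Where the donors of exons 2 and 3 compete, the exon 3 donor was at 84.7% in Ler and 73.8% in Col for the acceptor 32 bp before exon 4. For the exon 4 acceptor it was at 93.2% in Ler and 89.9% in Col. The segment from the acceptor 4 bp inside exon 3 to the exon 3 donor was at 85.5% in Ler and 73.8% in Col against the first acceptor, and at 93.4% in Ler and 89.9% in Col against the exon 4 acceptor. In Col these skipping levels equal the 5' site levels exactly, with no visible addition from the acceptor 4 bp inside exon 3.

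At the exon 3 donor, splicing was shifted in Ler towards the unannotated acceptors upstream of exon 4. The acceptor 32 bp before exon 4, set against the exon 4 acceptor, was at 35.1% in Ler and 22.3% in Col, marked as higher in Ler (q = 0.00870 in the authors' deposited table). The acceptor 58 bp before exon 4 was at 10.9% in Ler and 2.38% in Col against the exon 4 acceptor. That event had q = 0.00479 in the authors' deposited table but no mark, and its difference was 8.49 points. Between both upstream acceptors, the one at 58 bp was at 18.2% in Ler and 7.69% in Col, without a mark.

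The retention levels of intron 3 show the same acceptors from the other side. For the interval that ends 58 bp before exon 4 the level was 77.0% in Ler and 93.1% in Col, marked as higher in Col (q = 0.0127 in the authors' deposited table). For the interval that ends 32 bp before exon 4 it was 38.5% in Ler and 52.8% in Col, without a mark. For the annotated intron it was 22.3% in Ler and 21.8% in Col (q = 1 in the authors' deposited table). Among these 3 events the level was lower in Ler with both upstream acceptors and close to equal with the annotated one.

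Recombined, the exon 3 donor was spliced to the exon 4 acceptor at 64.7% in Ler and 78.8% in Col, to the acceptor 32 bp before it at 29.8% in Ler and 19.6% in Col, and to the acceptor 58 bp before it at 5.56% in Ler and 1.62% in Col. From the 3' site levels in place of the retention levels, the share of the exon 4 acceptor was 60.1% in Ler and 76.2% in Col. The unspliced form made up 15.7% in Ler and 18.0% in Col. Both upstream acceptors shift the frame on the Col reference: the one at 32 bp gives a stop codon after 264 codons, and the one at 58 bp after 207 codons. A retained intron 3 has a length that keeps the frame, but it meets a stop codon after 201 codons.

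**Figure D4:**
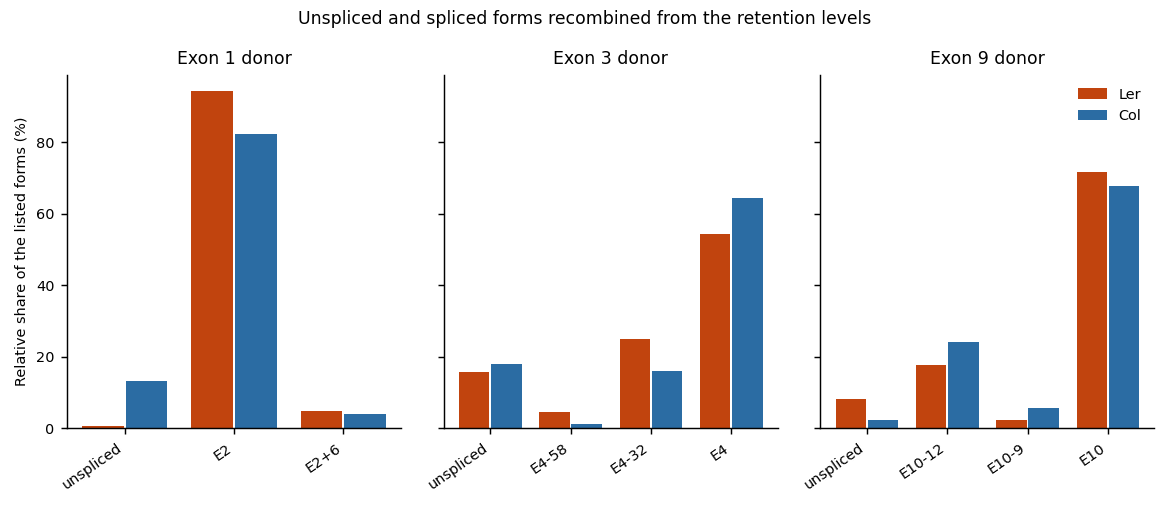
Relative share in percent of the unspliced form and of each acceptor at the donors of exons 1, 3 and 9, recombined from the retention levels, in Ler (left bar of each pair) and Col (right bar), with acceptors named as in the plot of all levels. The unspliced share is 0.739% in Ler and 13.4% in Col at the exon 1 donor, and 8.36% in Ler and 2.32% in Col at the exon 9 donor.

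Intron 9 differed in the direction opposite to intron 1, with more retention in Ler. Its 3 acceptors are all annotated, and the first 2, at 12 and 9 bp before exon 10, have AG ends 3 bases apart. With the acceptor 12 bp before exon 10, the retention level was 32.1% in Ler and 8.79% in Col. The event was marked as higher in Ler (q = 0.00247 in the authors' deposited table). With the acceptor 9 bp before exon 10, it was 78.8% in Ler and 28.6% in Col, also marked (q = 0.00113 in the authors' deposited table). With the exon 10 acceptor, it was 10.4% in Ler and 3.31% in Col. This last event had q = 0.0206 in the authors' deposited table, a difference of 7.14 points and no mark.

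The choice among these acceptors was not marked in any of its 3 events. The acceptor 12 bp before exon 10 was at 88.5% in Ler and 80.4% in Col against the one at 9 bp. It was at 19.5% in Ler and 25.9% in Col against the exon 10 acceptor. The acceptor at 9 bp was at 2.62% in Ler and 7.51% in Col against the exon 10 acceptor. The q values of these 3 events ran from 0.113 to 0.461 in the authors' deposited table, which does not show that the choice is equal in both ecotypes.

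Recombined, the unspliced form made up 8.36% in Ler and 2.32% in Col of the forms of the exon 9 donor, a Ler to Col ratio of 3.60. The reads behind this ratio are not listed and may be few. Of the spliced forms, 78.2% in Ler and 69.4% in Col used the exon 10 acceptor. The acceptor at 12 bp took 19.3% in Ler and 24.6% in Col, and that at 9 bp took 2.46% in Ler and 5.93% in Col. The upstream acceptors add 4 and 3 codons and keep the frame. A retained intron 9 shifts it, with a stop codon after 336 codons.

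In sum over the 10 marks, 2 belong to the unspliced intron 1, 3 to the junction from exon 1 to the acceptor 32 bp before exon 4, 2 to the acceptors before exon 4 at the exon 3 donor, 1 to the acceptor 4 bp inside exon 3 and 2 to the unspliced intron 9. Of the 28 unmarked events 7 had q under 0.05 in the authors' deposited table, and all 7 were higher in Ler. Most of these 7 share the junction from exon 1 to the acceptor 32 bp before exon 4, so they are not independent differences. Over all events, marked or not, 14.3% had q under 0.05. The other 21 unmarked events of the gene comprised 6 with a difference of at least 10 points and 15 below it.

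Among the 14 genes with at least 20 events, AT3G18500 had 13 junctions, as did AT1G18730, AT2G30600 and AT2G32700, while AT5G47455 had 8. AT3G18500 had 2.92 events per junction, against 1.05 to 2.75 in the other 13 genes. The gene was chosen for its number of events, which enters this ratio. By share of marked events the most similar genes were AT5G04360, a limit dextrinase of starch breakdown, with 6 of 23 events marked (26.1%), AT4G02120, a CTP synthase family protein, with 6 of 21 (28.6%), and AT2G30600, a BTB/POZ domain-containing protein, with 4 of 20 (20%). The likeness is in this share alone, over 1 value per ecotype. In AT2G30600 all 4 marks were higher in Col, in AT4G02120 they were 2 higher in Ler and 4 in Col, and in AT5G04360 5 higher in Ler and 1 in Col.

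**Figure D5:**
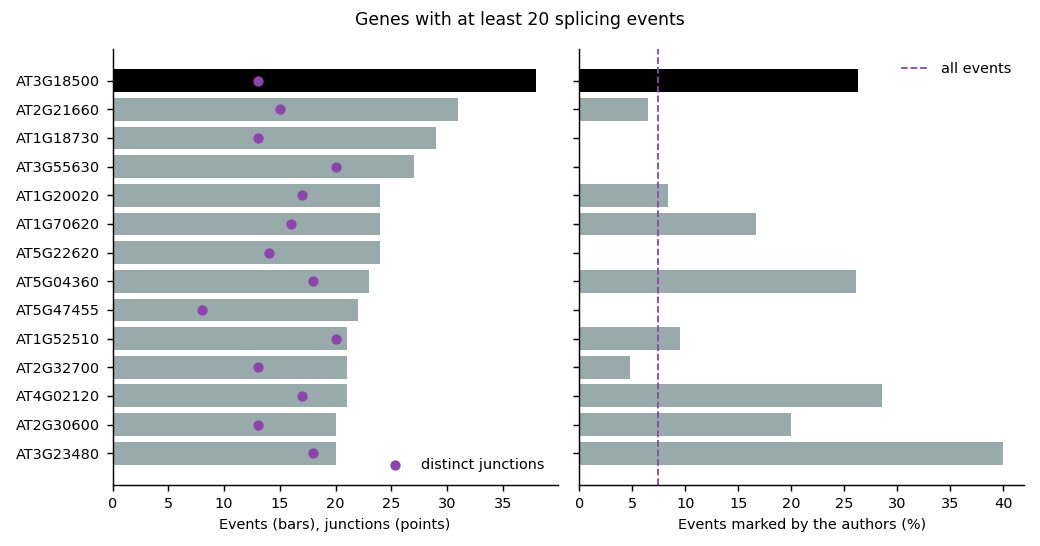
The 14 genes with at least 20 events. Left, number of events (bars) and of distinct junctions (points), with AT3G18500 in black at 38 events and 13 junctions. Right, percentage of events marked by the authors, with a dashed line at 7.46%, the share over all events; AT3G18500 lies at 26.3% and 4 genes lie at 0.

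Genes of mRNA deadenylation were set beside AT3G18500 from a list of 31 CCR4-like and CAF1-like nucleases, NOT subunits and the poly(A) ribonuclease PARN. The list counts AT3G18500 as a CCR4-like nuclease, a role that was not tested here. Of the other 30 genes, 10 had events, with 1 to 8 events each. Of these 10 genes 4 held a marked event, against 13.5% of all genes with events. In all, 4 of their 38 events were marked (10.5%), 2 higher in Ler and 2 in Col, and their median absolute difference was 2.12 points.

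The CCR4-like gene AT1G31500 held a 5' site event with a step of 18 bp, at 94.9% in Ler and listed at 0 in Col (q = 2.87e-77 in the authors' deposited table). AT1G02080, the scaffold subunit NOT1, had a 3' site event of 3 bp at 13.9% in Ler and 0.980% in Col. AT5G59710, a NOT2 subunit named VIP2 in the annotation, had a 3' site event of 15 bp at 81.2% in Ler and 93.5% in Col. AT5G18230, of the NOT2/NOT3/NOT5 family, had its 6 bp 3' site event at 0.187% in Ler and 99.9% in Col. Among the listed genes without a mark, the largest difference was an intron of the CCR4-like gene AT5G11350, at 17.7% in Ler and 29.6% in Col. Next came introns of the RNA-binding proteins AT2G28540, at 23.5% in Ler and 16.8% in Col, and AT5G60170, at 21.3% in Ler and 16.4% in Col.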

How the data were processed

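The submitters' processing notes name TopHat and the build TAIR10, without versions. The inclusion level is a fraction from 0 to 1, deposited by the authors as 1 value per ecotype, per the file headers, and was multiplied to percent. The sources used here do not say how levels were estimated, samples pooled and events marked. The text cell with the sign and q value is the authors', per the file headers. The sign was read from the values: every event with a mark had the direction of its difference.

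The members and lists were chosen with earlier results of these data known. All 38 events are described. From the deadenylase list, genes with a mark were named, and the 3 genes without a mark that had the largest differences. Of the genes with at least 20 events, the 3 with the nearest share of marks were named.

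Coordinates were compared with RefSeq TAIR10.1: of 7398 retained introns 93.2% had GT and AG ends and 64.3% equalled an annotated intron, against 0 when shifted by 1 bp. A skipping event was counted with its excluded junction and both flanking ones. Ratios of forms came from odds of levels, and the code was tried first on simulated reads. Recovery there follows from the algebra, so the trial gives no error for the shares. The work used Python 3.11.15, pandas 2.3.3, numpy 2.4.6 and matplotlib 3.10.9. Alternatives tried were other thresholds, sets without levels of 0 or other lengths in Ler, and 1 event per group.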

Additional observations from a re-analysis of the deposited data

How the results depend on the processing

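With q under 0.05 whatever the difference, 17 events of AT3G18500 passed, beside 14.3% of all events. Of these, 14 were higher in Ler, but 8 of the 14 share the junction from exon 1 to the acceptor 32 bp before exon 4. The authors' mark gave 10 events, 7 of them higher in Ler. With q under 0.05 and at least 10 points 12 events passed, and with at least 20 points 7. Without levels listed at 0 the marked events numbered 9. Leaving out events with another interval length in Ler removed 31 of the 38 events, which left 2 marked events, both higher in Ler, in 1 group of shared splice sites. With the first event of each group, 2 events remained, both marked, 1 higher in Ler, with a median absolute difference of 18.2 points. Without the junction from exon 1 to the acceptor 32 bp before exon 4, an alternative chosen after seeing the data, 4 marked events were higher in Ler and 3 in Col. In the deadenylase list, with AT3G18500 itself counted, 3 genes in place of 5 passed q under 0.05 with at least 20 points. Grouping by whole junctions also gave 2 groups with marked events. The depth is not listed and no limit of detection was computed, so a level listed at 0 may only reflect few reads. No paired analysis was possible because the table holds 1 pooled value per ecotype, and for the same reason no replicate could be left out.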
